A study of Mus musculus with 2 samples.

Results

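The gene set described here comprised 10 genes of cyclic nucleotide signalling, out of 31040 genes in the deposited matrix. It held 5 phosphodiesterase genes (Pde10a, Pde1b, Pde7b, Pde4b and Pde4d), 4 adenylyl cyclase genes (Adcy5, Adcy1, Adcy2 and Adcy8) and Gnal, which encodes a G protein alpha subunit and is neither a phosphodiesterase nor a cyclase. The genes were chosen by symbol, each symbol matched 1 row of the matrix, and all 10 had more than the 50 UMIs (unique molecular identifiers, counted transcript molecules) set as the minimum for a comparison of cell classes.

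Adenylyl cyclases make cyclic AMP, stimulatory G proteins such as the product of Gnal switch them on, and phosphodiesterases break down cyclic AMP, cyclic GMP or both. In the striatum, dopamine D1 receptors and the adenosine receptors encoded by Adora2a raise cyclic AMP through the product of Gnal and the cyclase encoded by Adcy5, and dopamine D2 receptors lower it. Phosphodiesterase inhibitors act on this balance, and psychostimulants such as methamphetamine raise the extracellular dopamine that drives it.

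The nuclei came from the prefrontal cortex of wild-type male C57BL/6 mice aged 2 months, in a METH group given 5 mg/kg METH by intraperitoneal injection over 14 days and a Control group given saline by the same route over the same time. Tissue of 3 mice per group was taken, and the labels list 1 sample per group. Barcodes in the matrix ended in 1 of 2 numbers, called library 1 and library 2 here. Which of these numbers stands for which group is not stated in the labels or the files, so no METH against Control comparison was made, and neither a treatment effect nor a spread between animals can be read from the values. Levels are therefore those of both libraries pooled, with each library alone beside the main ones, and all intervals are exact 95% intervals of the counting error alone, because nuclei are no replicates of a condition.

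The depth was 31273163 UMIs over 9890 barcodes for library 1 and 35292937 UMIs over 10876 barcodes for library 2, with 154 barcode sequences in both. After removal of barcodes with under 500 genes and of called doublets, 18002 nuclei remained, with a median of 2978 UMIs. Markers gave 12 cell classes, 9 of them with at least 100 nuclei. The largest were 8003 excitatory neurons, 3058 oligodendrocytes and 3028 inhibitory neurons. Although the tissue label names cortex only, 1273 nuclei (7.07%) carried markers of striatal projection neurons, the GABAergic output neurons of the striatum. The summed level of the 12 markers of that list, which also named the clusters, was 4546 CPM (UMIs per 1000000 UMIs of the class). In the other classes of at least 100 nuclei it ran from 279 CPM in excitatory neurons to 766 CPM in microglia. Striatal projection neurons made up 4.32% of the nuclei of library 1 and 9.27% of those of library 2. A further 581 nuclei (3.23%) stayed without a class. The 10 genes were used neither to cluster the nuclei nor to name the clusters.

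All positions are given on GRCm38 (mm10) with GENCODE M21 names. Pde10a lies on chromosome 17 from 8525372 to 8986648 on the plus strand, Pde1b on chromosome 15 from 103503034 to 103530052 on the plus strand, and Pde7b on chromosome 10 from 20398004 to 20725078 on the minus strand. Pde4b lies on chromosome 4 from 102087543 to 102607259 and Pde4d on chromosome 13 from 108449948 to 109953461, both on the plus strand. Adcy5 lies on chromosome 16 from 35154877 to 35305738 and Adcy1 on chromosome 11 from 7063489 to 7178506, both on the plus strand. Adcy2 lies on chromosome 13 from 68620043 to 68999541 and Adcy8 on chromosome 15 from 64697084 to 64922296, both on the minus strand, and Gnal on chromosome 18 from 67088216 to 67226792 on the plus strand. All are annotated as protein-coding. The strand setting of the counting is not given in the sources used here, so reads of overlapping genes cannot be told apart. The overlapping genes Chmp1b and Mppe1 together had 234 UMIs beside 6625 of Gnal, Gm21798 had 589 beside 6015 of Adcy8, and Gm35161 had 585 beside 16624 of Adcy2.

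The promoters of Pde10a, Pde1b, Pde7b and Adcy5 are shown because these 4 genes shared their highest class, striatal projection neurons. RefSeq promoter entries (GRCm38.p6) were found for 8 of the 10 genes, Adcy8 and Gnal being without one. Each sequence is the 250 bases before the RefSeq start that lies farthest upstream, read 5′ to 3′ on the gene's strand. The windows are chr17:8801495-8801744 on the plus strand (Pde10a), chr15:103502784-103503033 on the plus strand (Pde1b), chr10:20548329-20548578 on the minus strand (Pde7b) and chr16:35154614-35154863 on the plus strand (Adcy5). Those of Pde10a and Pde7b lie inside the GENCODE gene spans, downstream of other annotated starts. Capitals mark matches to GGGCGG or its reverse complement CCGCCC, the GC box bound by Sp1 family factors.

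Pde10a: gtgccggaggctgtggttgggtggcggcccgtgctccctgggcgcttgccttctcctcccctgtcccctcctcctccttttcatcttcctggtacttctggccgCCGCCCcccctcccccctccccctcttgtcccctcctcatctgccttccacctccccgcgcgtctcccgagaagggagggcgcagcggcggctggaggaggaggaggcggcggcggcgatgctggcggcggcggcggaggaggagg

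Pde1b: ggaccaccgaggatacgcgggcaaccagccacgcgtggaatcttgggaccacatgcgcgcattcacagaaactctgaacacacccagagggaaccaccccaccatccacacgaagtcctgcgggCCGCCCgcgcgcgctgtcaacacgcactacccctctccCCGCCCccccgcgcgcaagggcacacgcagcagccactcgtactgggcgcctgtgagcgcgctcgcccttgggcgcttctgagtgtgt

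Pde7b: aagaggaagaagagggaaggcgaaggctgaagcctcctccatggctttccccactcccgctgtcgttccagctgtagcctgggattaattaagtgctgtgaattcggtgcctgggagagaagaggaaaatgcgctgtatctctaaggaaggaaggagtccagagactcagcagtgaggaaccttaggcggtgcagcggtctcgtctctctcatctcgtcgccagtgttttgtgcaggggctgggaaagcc

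Adcy5: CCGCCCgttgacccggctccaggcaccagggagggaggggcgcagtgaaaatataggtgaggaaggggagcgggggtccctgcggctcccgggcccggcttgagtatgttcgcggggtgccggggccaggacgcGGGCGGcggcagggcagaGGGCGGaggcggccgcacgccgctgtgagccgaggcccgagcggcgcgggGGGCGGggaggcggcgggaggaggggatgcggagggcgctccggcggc

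The GC box occurred 4 times in the Adcy5 window, 2 times in that of Pde1b, once in that of Pde10a and not in that of Pde7b, on either strand. Among 32851 RefSeq windows of this length, 32.7% held it. TGACG or its reverse complement CGTCA, the half-site of the cyclic AMP response element, was in none of the 4 windows, and 17.8% of all windows held it. The GC content was 78% (Adcy5), 72.8% (Pde10a), 67.2% (Pde1b) and 55.2% (Pde7b), against a median of 52.4% over all windows. These matches describe letters only and show no binding.

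Of the 10 genes, 5 had their highest class level in striatal projection neurons, namely Pde10a, Pde1b, Pde7b, Adcy5 and Gnal. Over the 15846 genes with at least 50 UMIs, 7.12% had their maximum in this class. All 5 exceeded the next class by at least 2-fold with the lower bound of the ratio above 1, which held for 1.1% of all genes in this class. In any class, 6 of the 10 genes passed this rule, Pde4b being the sixth, against 13.6% of all genes. Pde4b had its maximum in oligodendrocytes, as did 8.0% of all genes, and 1.82% of all genes passed the rule in that class. Pde4d, Adcy1 and Adcy2 had their maximum in excitatory neurons (6.47% of all genes) and Adcy8 in inhibitory neurons (7.46% of all genes). The median ratio of the highest class to the next was 2.98 over the 10 genes and 1.28 over all genes tested. The highest class was the same in library 1 and library 2 for all 10, as it was for 45.0% of all genes. The 10 genes had 2867 (Pde1b) to 80179 (Pde4d) UMIs in the named classes, far above the minimum of 50. Agreement of the libraries and the bound of the ratio are therefore easier to meet for them than for many of all genes. The shares over all genes were not matched for UMIs. Levels are compared between cell types within a gene and not between genes, because 3′ tag counts carry no length correction.

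**Figure D1:**
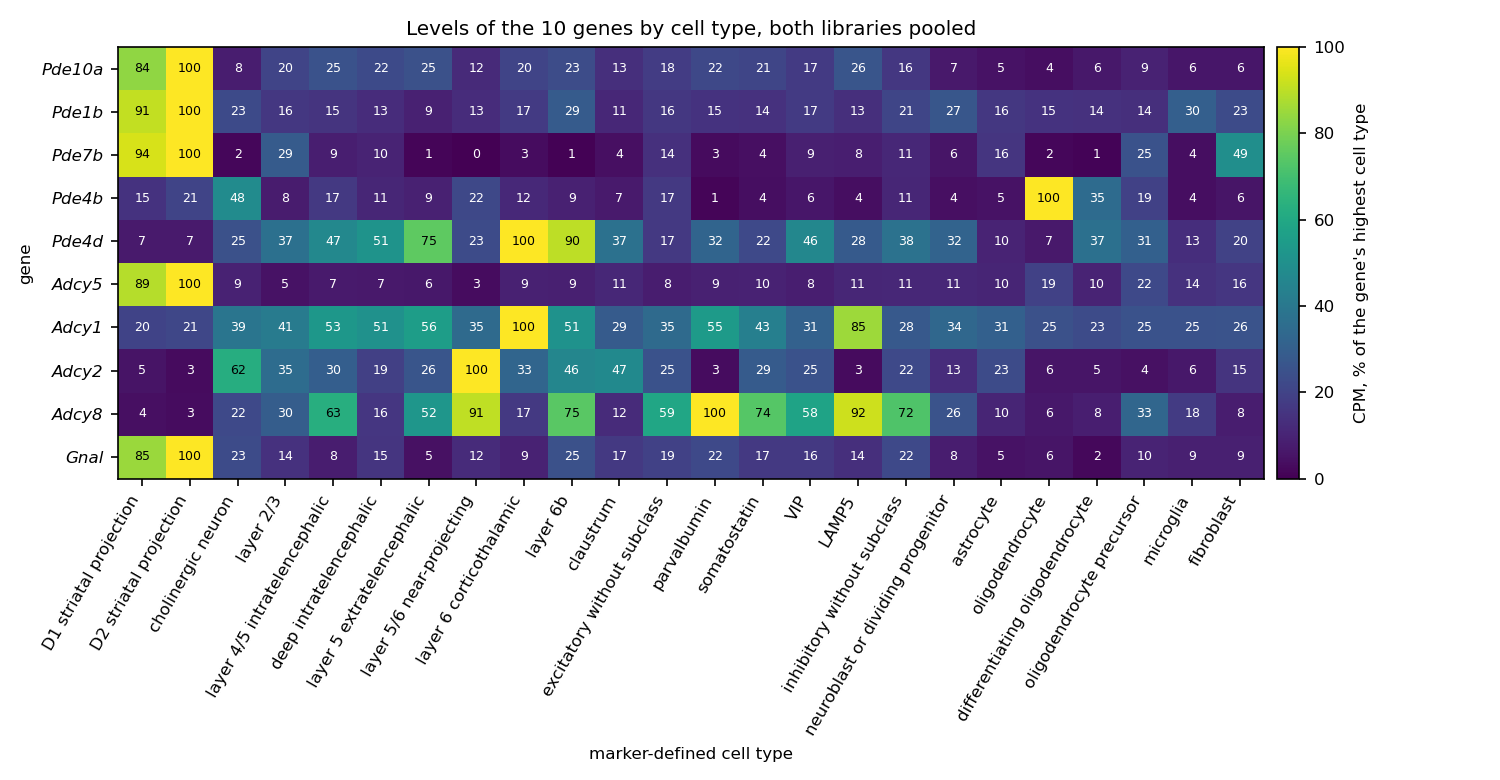
Each row is 1 gene and each column 1 marker-defined cell type with at least 100000 UMIs, and colours and numbers give the CPM as a percent of that gene's highest type, both libraries pooled. Pde10a, Pde1b, Pde7b, Adcy5 and Gnal peak in both striatal types at the left, Pde4b in oligodendrocytes, Pde4d and Adcy1 in layer 6 corticothalamic neurons, Adcy2 in near-projecting neurons and Adcy8 in parvalbumin neurons.

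Pde10a, a phosphodiesterase that hydrolyses both cyclic AMP and cyclic GMP, reached 1974 CPM in striatal projection neurons (interval 1929 to 2019), with 2182 CPM in library 1 and 1900.5 CPM in library 2. Excitatory neurons, the next class, had 482 CPM, with 411 and 548 CPM in libraries 1 and 2. The ratio of striatal projection to excitatory neurons was 4.09 (interval 3.98 to 4.21), and it was 5.18 in library 1 and 3.47 in library 2. Both striatal libraries lay far above both excitatory ones. Among other neurons the gene was spread widely, with 586 CPM in LAMP5 inhibitory neurons, 562 CPM in layer 4/5 intratelencephalic neurons and 551 CPM in layer 5 extratelencephalic neurons. These neighbours in the order did not differ beyond counting error, with ratios of 1.04 (0.95 to 1.15) and 1.02 (0.97 to 1.07). Oligodendrocytes had the lowest value, 80.1 CPM. Like astrocytes (105.5 CPM) and microglia (131 CPM), they did not exceed their free RNA level, so the order among these classes cannot be read.

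Pde1b, a calcium/calmodulin-dependent phosphodiesterase of both cyclic nucleotides, had 233 CPM in striatal projection neurons, with 211 CPM in library 1 and 241 CPM in library 2. Microglia came next at 75.3 CPM, with 51.6 and 93.7 CPM in libraries 1 and 2, a ratio of 3.10 (interval 2.33 to 4.21). With the free RNA level subtracted, which is an upper limit, the next class was excitatory neurons instead of microglia and the ratio was 8.63. Outside striatal projection neurons the gene was low in every type, from 75.3 CPM in microglia to 22.7 CPM in layer 5 extratelencephalic neurons. Only 1 of 23 steps between neighbouring types, that from D1 striatal projection neurons to microglia, had an interval that excluded 1. Types farther apart in the order were not compared in this way.

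Pde7b, a phosphodiesterase specific for cyclic AMP, had 1306 CPM in striatal projection neurons, with 1211 CPM in library 1 and 1339 CPM in library 2. Oligodendrocyte precursors were the next class at 345 CPM, with 361 and 337 CPM in libraries 1 and 2, a ratio of 3.78 (interval 3.20 to 4.50). With a minimum of 1000 genes per barcode no oligodendrocyte precursors were named, and the ratio to the next class was 6.00. Within excitatory neurons the gene was uneven. Layer 2/3 neurons had 388.5 CPM, while layer 5 extratelencephalic, layer 6b and near-projecting neurons had 17.8, 8.06 and 5.23 CPM. The layer 6b and near-projecting values did not exceed the free RNA levels of these types. The 69 fibroblast nuclei, too few for the class comparison, had 671 CPM from 71 UMIs, with 346 CPM in library 1 and 830 CPM in library 2.

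Adcy5, the main adenylyl cyclase of the striatum, had 554 CPM in striatal projection neurons, with 545 CPM in library 1 and 558 CPM in library 2. The next class, oligodendrocyte precursors, had 133 CPM, with 76.4 and 163 CPM in libraries 1 and 2, a ratio of 4.17 (interval 3.19 to 5.56). With the free RNA level subtracted, which is an upper limit, the ratio to the next class was 9.49. Oligodendrocytes followed with 115 CPM. The lowest type value was that of layer 5/6 near-projecting neurons, 19.2 CPM, which did not exceed their free RNA level.

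Gnal, the stimulatory G protein subunit that couples dopamine D1 receptors to cyclase, had 594 CPM in striatal projection neurons, with 649 CPM in library 1 and 574 CPM in library 2. Inhibitory neurons came next at 126 CPM, with 121 and 130 CPM in libraries 1 and 2. The ratio of 4.72 (interval 4.39 to 5.07) was the highest of the 10 genes. Layer 6b neurons led the cortical types with 163 CPM.

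**Figure D2:**
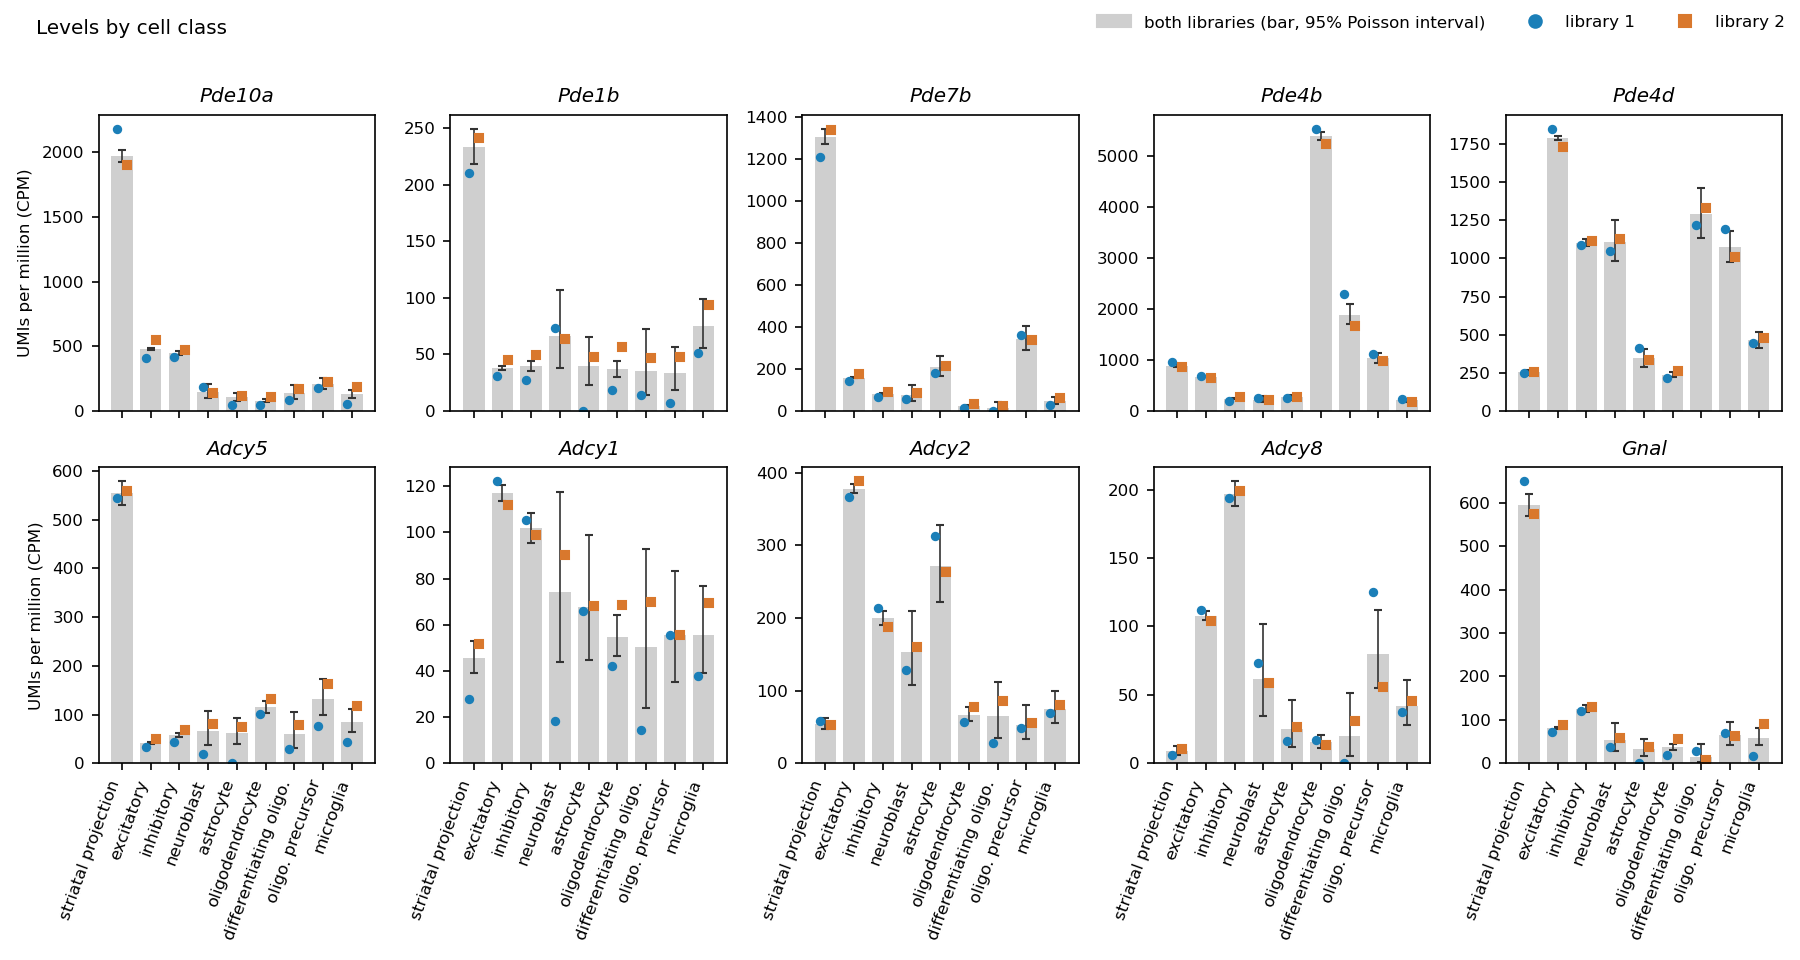
Bars give the CPM of each gene in the 9 classes of at least 100 nuclei with both libraries pooled, whiskers the exact 95% Poisson interval, and points the values in library 1 and library 2. In Pde10a, Pde1b, Pde7b, Adcy5 and Gnal the striatal projection neurons stand above every other class in both libraries, and in Pde4b the oligodendrocytes do.

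The remaining phosphodiesterase genes, both specific for cyclic AMP, had maxima elsewhere. Pde4b reached 5397 CPM in oligodendrocytes (interval 5312 to 5483), with 5537 CPM in library 1 and 5248 CPM in library 2. Differentiating oligodendrocytes had 1890 CPM, with 2306 and 1664 CPM in libraries 1 and 2, a ratio of 2.86 (interval 2.58 to 3.17), and oligodendrocyte precursors had 1038 CPM. The ratio to the next class was 9.01 with a minimum of 1000 genes per barcode and 4.64 at Leiden resolution 0.5. In these settings the differentiating oligodendrocytes (70 and 92 nuclei) were too few to compare, so the next class was a different one. Within the oligodendrocyte lineage the level was lowest in precursors and highest in mature cells. After thinning of every nucleus to 500 UMIs, 87.4% of oligodendrocytes kept a Pde4b UMI, against 10.6% of inhibitory neurons (94.7% and 33.4% before thinning, with median depths of 811 and 2839 UMIs).

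Among neurons, Pde4b ranged widely. The 55 cholinergic neurons had 2602 CPM, with 2522 CPM in library 1 and 2644 CPM in library 2. Near-projecting neurons had 1171 CPM. Parvalbumin neurons had 69.2 CPM, with 61.3 and 76.5 CPM in libraries 1 and 2, which did not exceed their free RNA level, 80.1 CPM. That level is the most that RNA released from broken cells could give a type, estimated from excitatory and myelin transcripts found outside their own cells. A gene was counted as above it where the lower bound of its own interval exceeded it. All 10 genes met this in their highest class. That says little, because the level is set by the class in which the gene is lowest for its free RNA. The share over all genes was not computed.

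Pde4d was highest in excitatory neurons at 1788 CPM, with 1849 CPM in library 1 and 1732 CPM in library 2. Differentiating oligodendrocytes came next with 1290 CPM, a ratio of 1.39 (interval 1.23 to 1.57). Among cortical types, layer 6 corticothalamic neurons had 3505 CPM, layer 6b neurons 3160 CPM and layer 5 extratelencephalic neurons 2638 CPM, against 1288 CPM in layer 2/3 and 795 CPM in layer 5/6 near-projecting neurons. In layer 6 corticothalamic neurons it had 3569 CPM in library 1 and 3438 CPM in library 2. Striatal projection neurons were among the lowest classes with 255 CPM.

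Adcy1 and Adcy8, cyclases that calcium/calmodulin stimulates, differed in place. Adcy1 had 117 CPM in excitatory neurons and 102 CPM in inhibitory neurons, a ratio of 1.15 (interval 1.07 to 1.23). Layer 6 corticothalamic neurons had 221 CPM and LAMP5 neurons 189 CPM, which did not differ beyond counting error (ratio 1.17, interval 0.98 to 1.41). Striatal projection neurons had the lowest class value, 45.6 CPM, which was above their free RNA level, 31.0 CPM. The glial classes and neuroblasts or dividing progenitors had 50.4 to 74.3 CPM. None of these exceeded its free RNA level, so their order against striatal projection neurons cannot be read. Adcy8 had 197 CPM in inhibitory neurons, with 194 and 199 CPM in libraries 1 and 2, and 108 CPM in excitatory neurons, a ratio of 1.83 (interval 1.73 to 1.93). Parvalbumin, LAMP5 and near-projecting neurons had 240, 222 and 218 CPM and did not differ beyond counting error from one to the next. Striatal projection neurons had 9.11 CPM from 34 UMIs, and their free RNA level was 10.1 CPM.

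Adcy2, a cyclase stimulated by G protein beta-gamma subunits, had 378 CPM in excitatory neurons and 271 CPM in astrocytes, a ratio of 1.39 (interval 1.15 to 1.70). With a minimum of 1000 genes per barcode, which left too few astrocytes to compare, the ratio to the next class was 2.14. Near-projecting neurons led all types with 1197 CPM, 1042 CPM in library 1 and 1319 CPM in library 2. Cholinergic neurons followed with 744 CPM (849 and 688 CPM in libraries 1 and 2), a ratio of near-projecting to cholinergic neurons of 1.61 (interval 1.39 to 1.87). Inhibitory neurons divided sharply. Somatostatin neurons had 342 CPM and VIP neurons 302 CPM, against 41.2 CPM in parvalbumin and 37.2 CPM in LAMP5 neurons. The LAMP5 value did not exceed the free RNA level of that type.

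**Figure D3:**
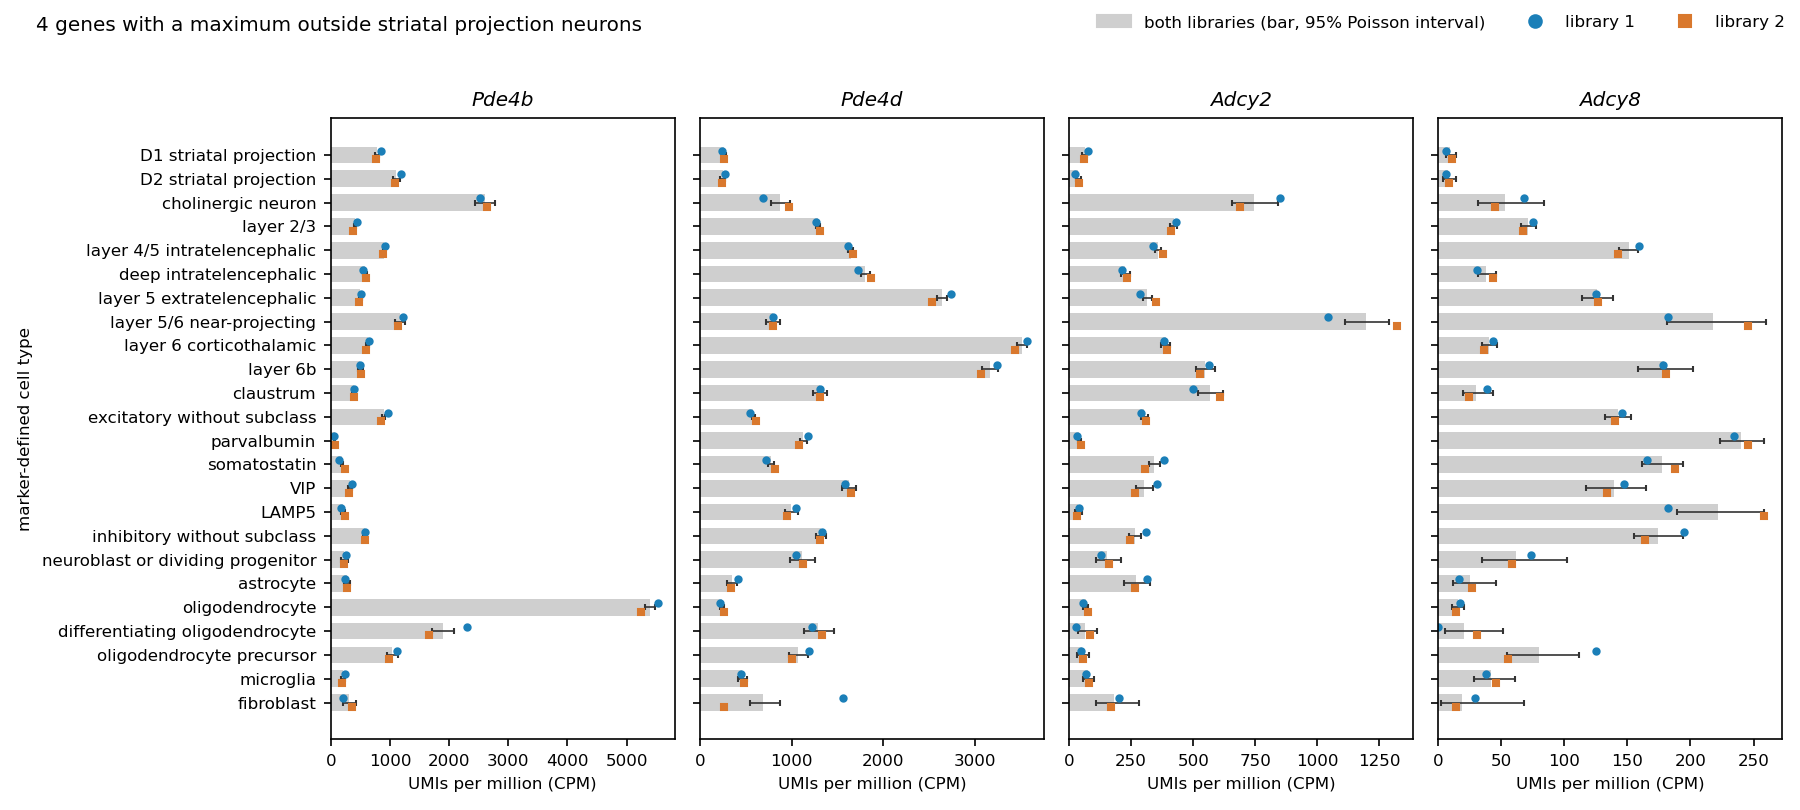
Bars give the CPM of Pde4b, Pde4d, Adcy2 and Adcy8 in each cell type with both libraries pooled, whiskers the exact 95% Poisson interval, and points the values in library 1 and library 2. Pde4b is highest in oligodendrocytes, Pde4d in layer 6 and layer 5 output neurons, Adcy2 in near-projecting neurons and Adcy8 in parvalbumin, LAMP5 and near-projecting neurons.

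Striatal projection neurons divided into 814 D1 nuclei, of the direct pathway, and 459 D2 nuclei, of the indirect pathway. Pde4b was lower in D1 than in D2 neurons, with 784 against 1107 CPM, a ratio of 0.708 (interval 0.660 to 0.759) that was 0.716 in library 1 and 0.704 in library 2. Pde10a had 1850 CPM in D1 and 2213 CPM in D2 neurons, a ratio of 0.836 (0.797 to 0.876). Gnal had a ratio of 0.851 (0.781 to 0.929), Adcy5 of 0.888 (0.812 to 0.973) and Pde7b of 0.939 (0.885 to 0.996). Adcy2 ran the other way, with 63.0 CPM in D1 and 37.0 CPM in D2 neurons, a ratio of 1.70 (1.22 to 2.41) that was 3.10 in library 1 and 1.41 in library 2, and its D2 level was not above the free RNA level. In all, 5 of the 10 genes had an interval below 1 and 1 had an interval above 1. Of the 9045 genes with at least 50 UMIs in D1 and D2 neurons together, 5.45% and 7.54% did. Adcy8, with 34 UMIs, was below that minimum. The 5 genes had 2068 (Adcy5) to 7363 (Pde10a) UMIs, far above it, so smaller differences exclude 1 for them than for many of all genes. The intervals of Pde1b, Pde4d, Adcy1 and Adcy8 included 1.

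The D1 nuclei were not uniform for Pde4b. A D1 cluster of 134 nuclei led by Foxp2, Gpr149 and Pbx3 had 2590 CPM, with 2710 CPM in library 1 and 2520 CPM in library 2. The largest D1 cluster, 325 nuclei led by Rarb and Dach1, had 524 CPM, a ratio of 4.94 (interval 4.43 to 5.51) between them. A D1 cluster of 70 nuclei led by Gpr149, Slco5a1 and Isl1 had 64.1 CPM from 8 UMIs, below every other D1 cluster and below the free RNA level of D1 neurons. The Foxp2-led cluster also exceeded the main D2 cluster of 416 nuclei, which had 1091 CPM, so the lower mean level of D1 neurons did not hold for each D1 cluster. Between the largest D1 cluster and the main D2 cluster, a lower D1 level was not seen beyond counting error for Pde7b, Adcy5 and Pde10a. Pde7b was higher in that D1 cluster, with 1550 against 1351 CPM, a ratio of 1.15 (interval 1.07 to 1.23). Adcy5 had 629 CPM in that D1 cluster and 605 CPM in the main D2 cluster, a ratio of 1.04 (0.93 to 1.16). Pde10a had 2184 CPM in that D1 cluster and 2238 CPM in the main D2 cluster, and the ratio of D2 over D1 was 1.02 (0.97 to 1.08).

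The other striatal genes varied less between these clusters. Pde10a ran from 1505 to 2184 CPM over the 4 D1 clusters and Gnal from 473 to 601 CPM. Adcy5 had 361 CPM in the Foxp2-led and 272 CPM in the Slco5a1-containing cluster (386 and 177 CPM in libraries 1 and 2), against 629 CPM in the largest D1 cluster. Pde7b was lowest in the Foxp2-led cluster, with 779 CPM. Pde1b had 64.1 CPM in the Slco5a1-containing cluster from 8 UMIs, with 105 CPM in library 1 and 29.5 CPM in library 2, against 285 CPM in the largest D1 cluster. A separate cluster of 121 nuclei led by Gpr149, Stac and Isl1, with Drd3 among its 10 leading genes, met no class rule and stayed unnamed. It had 365 CPM of Adcy5 and 387 CPM of Gnal, but 343 CPM of Pde10a and 241 CPM of Pde7b.

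**Figure D4:**
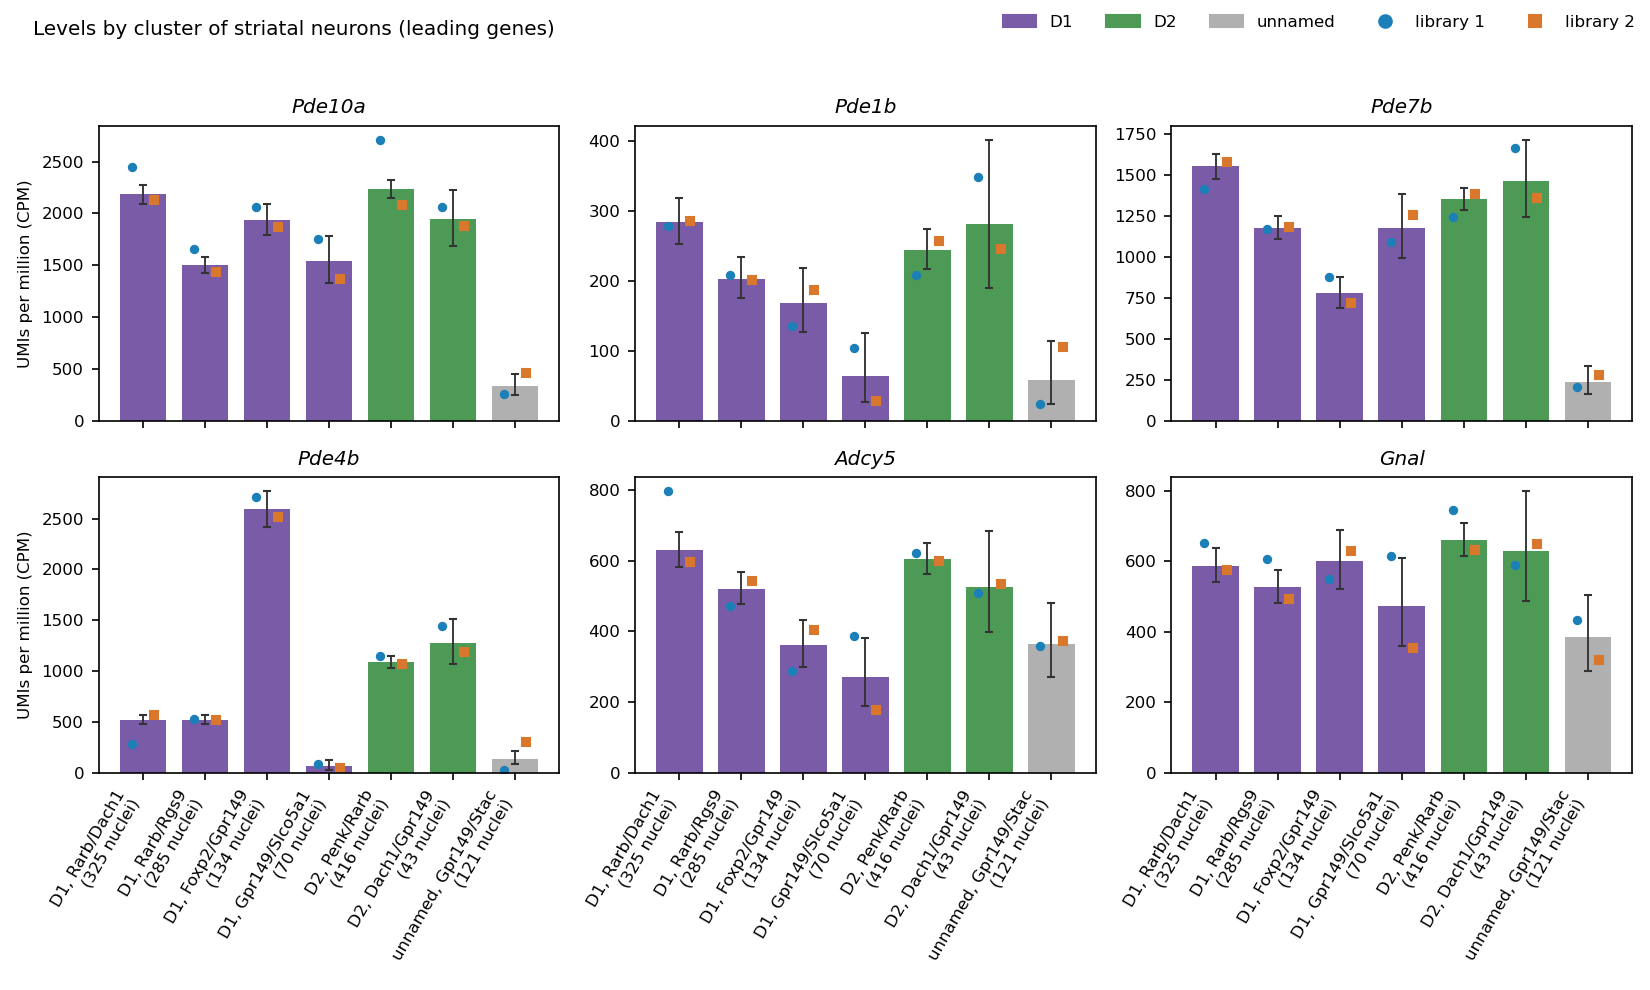
Bars give the CPM of 6 genes in the 6 clusters of striatal projection neurons and in 1 unnamed cluster, each labelled with its subclass, its 2 leading genes and its nuclei, with exact 95% Poisson intervals and points for library 1 and library 2. Pde4b is highest in the Foxp2-led D1 cluster and lowest in the D1 cluster led by Gpr149 and Slco5a1, while Pde10a and Gnal vary less.

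Library 2, which held the larger share of striatal projection neurons, also had higher levels of Pde10a and Gnal in oligodendrocytes and microglia. In oligodendrocytes Pde10a had 50.8 CPM in library 1 and 111 CPM in library 2. Gnal had 18.3 and 57.2 CPM there, in the same order of libraries. In microglia Pde10a had 58.5 CPM in the first and 187 CPM in the other library. In oligodendrocytes of libraries 1 and 2, Pde1b had 18.3 and 56.4 CPM, Pde7b 15.6 and 33.3 CPM and Adcy5 101 and 131 CPM. Among genes with their maximum elsewhere, Adcy1 had 42.0 and 68.7 CPM there, Adcy2 56.9 and 78.2 CPM and Pde4d 217 and 262 CPM. Adcy8, with 16.9 and 13.7 CPM, and Pde4b, with 5537 and 5248 CPM, were not higher in library 2 in oligodendrocytes. The part of free RNA in these differences between libraries was not tested.

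Over 22 types with at least 200000 UMIs, the levels of some of the 10 genes ran in parallel, given as Pearson correlations of log2(CPM + 10) without a test, since types share libraries and depth. Adcy5 and Pde1b had r = 0.83, Gnal and Pde1b 0.77, Gnal and Pde10a 0.75 and Adcy1 and Pde4d 0.70. Adcy5 was opposed to Adcy8 (r = -0.67) and to Adcy2 (r = -0.66). Outside the set, the most similar gene was Lrrk2, encoding a kinase, for Pde10a (0.88), with Car11 (0.88) and Rnf150 (0.87) after it. It was Tomm70a for Pde1b (0.92), with Sh3rf2 (0.90) and Tbc1d8 (0.88). For Pde7b it was Inhba (0.83), with Sesn3 (0.83) and Adamts3 (0.82).

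For Adcy5 the most similar genes were St8sia3 (0.90), Rxrg (0.89) and Rgs9 (0.89), the last a marker that named the striatal class. For Gnal they were Scmh1 (0.84), Ano2 (0.83) and Tbc1d8 (0.82). Pde4d was closest to Khdrbs3 (0.89), Sobp (0.85) and Ppm1e (0.85), and Pde4b to 6530409C15Rik (0.75), Tex2 (0.71) and Fign (0.70). Adcy1 was closest to Sel1l3 (0.83), Gm34354 (0.83) and Cdc25b (0.81), Adcy2 to Mocos (0.83), Kcnt2 (0.78) and Gm31333 (0.77), and Adcy8 to Ipo9 (0.85), Mast1 (0.81) and Pitpnm1 (0.81).

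Of 83 other genes of cyclic nucleotide signalling, 71 had at least 50 UMIs and 18 of them passed the 2-fold rule, against 13.6% of all genes. In lists this short, counts of 0 to 2 genes are not read as particular to a list. Among 17 other phosphodiesterase genes tested, 8 did, and the 4 with the highest ratios were each led by another class. Pde8a had 386 CPM in oligodendrocytes and 30.1 CPM in astrocytes, a ratio of 12.8 (interval 7.30 to 24.9). Pde3b had 501 CPM in microglia and 40.3 CPM in differentiating oligodendrocytes, a ratio of 12.4 (6.24 to 29.0). Pde11a had 61.6 CPM in inhibitory and 12.6 CPM in striatal projection neurons (ratio 4.89), and Pde9a, specific for cyclic GMP, had 141 CPM in differentiating oligodendrocytes and 34.0 CPM in inhibitory neurons (ratio 4.14).

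Of 5 other adenylyl cyclase genes tested, Adcy7 alone passed, with 111 CPM in microglia and a ratio to inhibitory neurons, the next class, of 8.56 (6.32 to 11.5). Of 5 guanylyl cyclase genes, Gucy1a1, a subunit of the nitric oxide receptor, passed with 99.2 CPM in striatal projection and 33.6 CPM in excitatory neurons (ratio 2.95). Of 8 G protein genes, Gng7 and Gnb5 passed, both highest in striatal projection neurons. Gng7, a gamma subunit that pairs with the product of Gnal in the striatum, had 232 CPM there and 75.9 CPM in oligodendrocytes (ratio 3.06), and Gnb5 had a ratio of 2.26 to inhibitory neurons that was 1.69 in library 1 and 2.17 in library 2.

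Downstream of cyclic AMP, 2 of 9 genes of protein kinase A passed. Prkar2b, a regulatory subunit, had 144 CPM in striatal projection neurons and 57.8 CPM in neuroblasts or dividing progenitors (ratio 2.49, with 1.62 in library 1 and 2.46 in library 2), and Pkib, a kinase inhibitor, was highest in microglia (ratio 3.64). Prkg2, a cyclic GMP-dependent kinase, had its maximum in oligodendrocyte precursors (ratio 3.83) and Rapgef3, an exchange factor activated by cyclic AMP, in astrocytes (ratio 4.21). Of 9 kinase targets, Ppp1r1b, which encodes the dopamine-regulated phosphatase inhibitor DARPP-32, passed with 268 CPM in striatal projection neurons and 133 CPM in microglia (ratio 2.02), and the ratio was 2.97 in library 1 and 1.36 in library 2. Of 5 channel genes, Hcn2 passed with its maximum in oligodendrocytes (ratio 2.62). None of 8 anchoring protein genes passed. The highest ratio among them was that of Akap13 in microglia, 1.95.

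**Figure D5:**
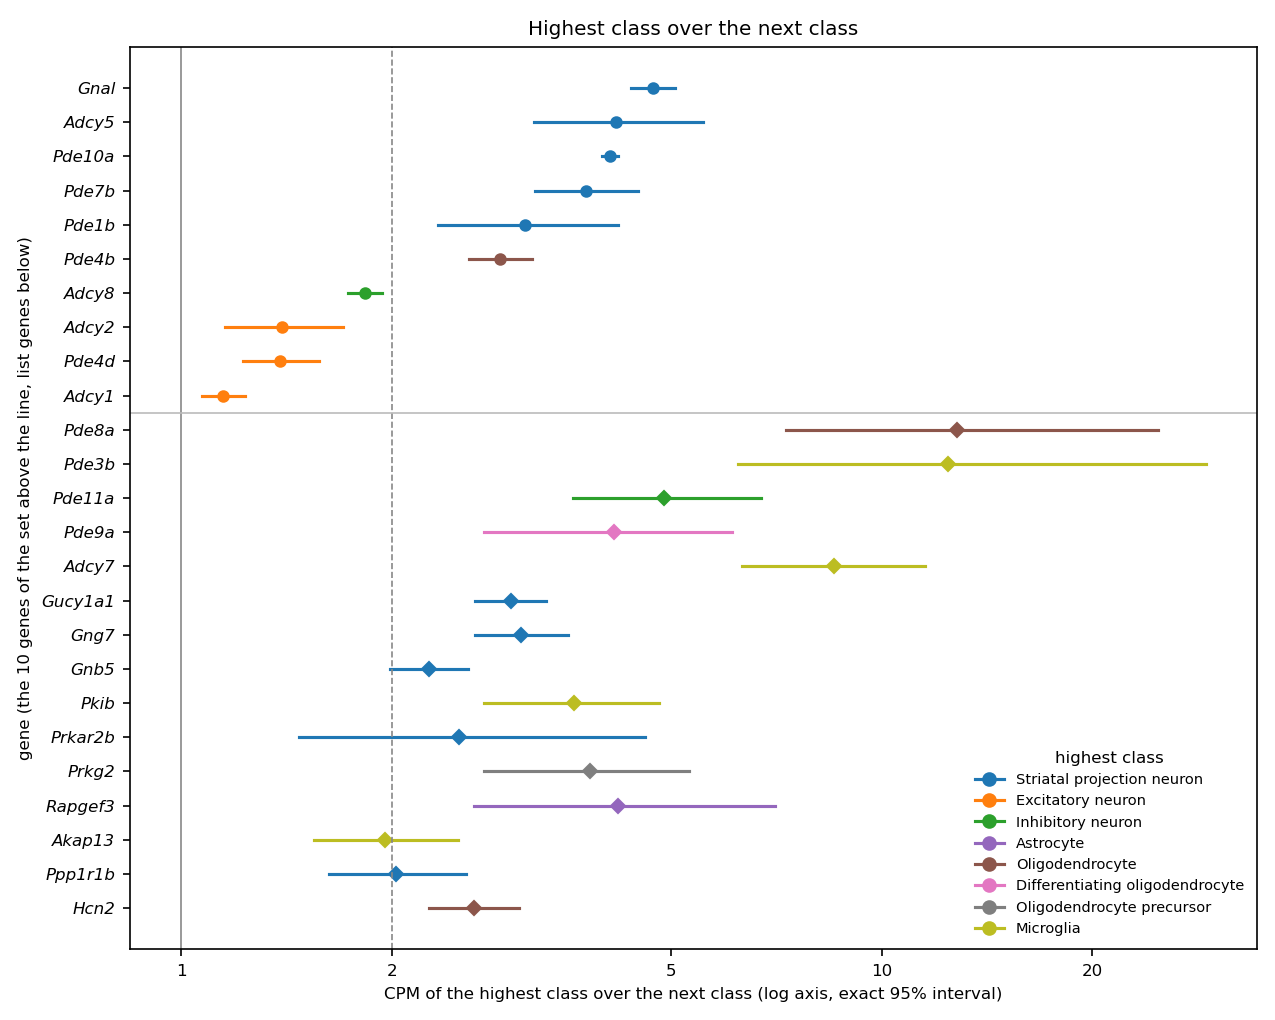
Points give the CPM of a gene's highest class over that of the next class on a log axis, lines the exact 95% interval, and colours the highest class, for the 10 genes above the line and the named genes of the other lists below it. The dashed line marks the 2-fold threshold, which Gnal, Adcy5, Pde10a, Pde7b, Pde1b and Pde4b pass among the 10.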

How the data were processed

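The authors deposited 1 matrix of unnormalised UMI counts, genes by barcodes, made from single nuclei isolated on an iodixanol gradient and run on 10x 3′ chemistry, per the labels' protocols. Mapping to mm10, Cell Ranger 1.3.0 and Seurat 3.1.4 are named in the submitters' processing notes, while per the file headers the matrix was written by software version 3.1.0. A barcode filter or depth equalisation is not given in the sources used here, and no mitochondrial gene was found by symbol.

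The minimum per barcode was 500 genes, and doublets called by Scrublet in Scanpy 1.11.5 (10.0% in library 1 and 6.19% in library 2) were removed. Counts were scaled to 10000 per nucleus, and 3000 variable genes, 50 principal components and 20 neighbours gave 26 Leiden clusters at resolution 1. The 10 genes, 83 other list genes and 5 blood and choroid plexus genes (Hba-a1, Hba-a2, Hbb-bs, Hbb-bt and Ttr) were kept out of the variable genes. A cluster took the class whose markers scored highest, each marker as a share of its maximum over clusters. To count, 3 or more markers and 50% of the list needed 20 CPM and 25% of that maximum, with a 1.5 times margin to the next list and no excess of another class among the 10 leading genes. Clusters without a class or neuronal subclass and with at least 60 nuclei were clustered again at resolution 0.5, which gave 54 clusters, 11 of them without a class.

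UMIs were summed per class or type and divided by its total (CPM), with exact Poisson intervals, exact conditional intervals for ratios and Clopper-Pearson intervals for shares (SciPy 1.17.1). These cover counting error only. The free RNA level of a gene is the CPM of Slc17a7 in the class, or in excitatory types the summed CPM of 8 myelin genes times 0.143, multiplied by the smallest quotient of the gene's upper Poisson bound and that index among classes with at least 200000 UMIs. It is an upper limit. Highest classes were counted by a rule of at least 2-fold over the next class. Named were the 10 genes, of each other list up to 4 genes past the rule or else the one with the highest ratio, and 3 most similar genes per member. The members and lists were chosen with earlier results of these data known, and details of the naming rule after the data were seen.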

Additional observations from a re-analysis of the deposited data

How the results depend on the processing

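Under 9 alternatives (at least 1000 genes per barcode, doublets kept, Leiden resolution 0.5 or 2, list genes allowed as variable genes, the mean CPM of single nuclei, the free RNA level subtracted, and library 1 or library 2 alone), 5 genes had their maximum in striatal projection neurons each time. For the mean CPM of single nuclei and the free RNA subtraction, the rule was the 2-fold ratio alone, without an interval. The number of genes past the 2-fold rule was 6 under each alternative except a minimum of 1000 genes, where it was 7. The seventh was Adcy2, with a ratio of 2.14. That minimum left 4 classes with at least 100 nuclei. It gave 1795 striatal projection and 2320 inhibitory neurons, against 1273 and 3028 in the classes reported above. The 89 astrocytes and 70 differentiating oligodendrocytes that remained were too few to compare, and no oligodendrocyte precursors were named. At resolution 0.5 the 92 differentiating oligodendrocytes were also too few. Striatal projection neurons numbered 1240 with doublets kept, 1527 at resolution 2 and 1415 with list genes allowed as variable genes. The class was thus not a fixed set of nuclei over the alternatives. All 90 recomputed ratios kept the highest class of the gene, none fell below 1, and 26 lay outside the counting interval of the value reported. Among genes past the rule, the ratio ran from 3.08 to 5.18 for Pde10a, from 2.57 to 8.63 for Pde1b, from 3.35 to 6.00 for Pde7b, from 2.40 to 9.01 for Pde4b, from 3.42 to 9.49 for Adcy5 and from 3.87 to 5.41 for Gnal. The highest values of Pde1b and Adcy5 came with the free RNA level, an upper limit, subtracted. Those of Pde4b and Pde7b came with the minimum of 1000 genes. With 2 libraries and no replicates, counting error sets the precision of classes with few UMIs. No paired analysis was possible because the matrix does not tie barcodes to the groups and each group has 1 sample.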
